A study of Homo sapiens with 21 samples.

Results

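The genes of 4 SRC family kinases, *SRC*, *YES1*, *FYN* and *LYN*, were examined for HNRNPK binding in MDA-MB-231 cells, a human triple-negative breast cancer line. All PAR-CLIP clusters, stretches of RNA covered by overlapping crosslinked reads, that were assigned to 1 of these gene names were taken, 378 of 778762 clusters in all. PAR-CLIP feeds cells 4-thiouridine (4SU), crosslinks RNA to protein with ultraviolet light and recovers the RNA with an antibody, here against HNRNPK/J. Crosslinked uridines are read as C, so a T-to-C change marks a contact. The 4 libraries came from the cytoplasmic and the nuclear fraction of parental cells and of *KRT19* KO cells, in which the keratin 19 gene was knocked out with CRISPR/Cas9. The cells of all 4 libraries had received 4SU. Whether the fractions of a cell line came from the same culture is not given in the sources used here. Each condition is 1 library, so no spread between cultures was available and no test was run. Whether the *KRT19* KO line is 1 clone is not given in the sources used here, so the genotype and the line cannot be told apart.

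SRC family kinases are tyrosine kinases held at membranes, where they relay signals from integrins and growth factor receptors to the cytoskeleton and to cell growth. Their SH2 and SH3 domains fold the kinase into an inactive form once CSK has phosphorylated the tail, and phosphatases such as PTPRA and PTPN1 undo this. HNRNPK, an RNA-binding protein with KH domains that prefer runs of C, carries proline-rich stretches that bind the SRC SH3 domain. It is itself phosphorylated by SRC and has been described as a regulator of *SRC* mRNA translation, so the RNAs of its kinase partners are of interest as ligands.

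The clusters held 5551612 reads in the parental cytoplasm, 6216226 in the *KRT19* KO cytoplasm, 3537577 in the parental nucleus and 3252800 in the *KRT19* KO nucleus. Of these, 1934, 1501, 1734 and 1119 reads in 117, 71, 114 and 76 clusters lay in the 4 kinase genes. A cluster was listed only with at least 5 reads, of which at least 4 had a T-to-C change, so a site that is not listed may lie under this limit. Counting intervals below are 95% intervals that cover counting error alone, and any PCR copies left among the reads are not independent molecules. Unique reads made up 30.9% of reads in the parental against 45.6% in the *KRT19* KO cytoplasm, but 20.0% and 19.0% in the nuclei. Of the kinase clusters, 107 or 28.3% rested on 1 unique read. RNA-seq of the series was not analysed here, so from the clusters alone more RNA and more binding per RNA cannot be told apart.

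The labels were checked with 3 RNAs. *KRT19*, the gene targeted in the KO cells, had 7 reads in the parental cytoplasm, 5 in the *KRT19* KO cytoplasm and no cluster in either nucleus, too few to check the genotype. *NEAT1*, a noncoding RNA of nuclear paraspeckles, had 22.6 and 20.4 reads per 100000 reads in clusters in the parental and *KRT19* KO cytoplasm and 78.9 and 109 in the nuclei. *MALAT1*, a noncoding RNA of nuclear speckles, did not follow the fractions, with 123 and 84.2 reads per 100000 in the cytoplasms against 88.8 and 54.8 in the nuclei. Both RNAs were thus recovered in the cytoplasmic libraries, and the part of nuclear RNA in the cytoplasmic intronic reads described below was not tested.

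All 378 sequences were equal to the GRCh37 (hg19) genome at their listed positions, and 377 of them occurred there at 1 place only. Clusters of the 4 libraries that overlapped on the same strand were merged into 292 sites, of which 5 were listed in all 4 libraries. These 5 are shown first, since they were recovered in each cell line and fraction. Letters are the sense strand, 5′ to 3′, with T for U, and capitals mark runs of at least 2 C; longer clusters are cut to the 30 bases richest in C.
*SRC* intron 2, chr20:36002145-36002171, plus strand: atcttaaaaatcatCCaCCtttttctc
*YES1* intron 11, chr18:725941-725970, minus strand: CCttactCCttttctCCttcaCCCaacaac
*FYN* intron 13, chr6:111986705-111986734, minus strand: ttCCtattcactatCCttcaCCtctcaggt
*FYN* intron 8, chr6:112022692-112022718, minus strand: tCCCtctttctctctcacacaataaaa
*FYN* intron 2, chr6:112149966-112149993, minus strand: aatCCataCCtcttaaacaacaactCCg
The next are the largest intronic *SRC* site and 4 3′UTR sites that were each listed in 1 cell line or 1 fraction only, as described below.
*SRC* intron 2, chr20:35994779-35994808, plus strand: aattCCCataCCatacaatttatctattta
*SRC* 3′UTR, chr20:36033492-36033521, plus strand: caacttttCCtttcatacgtctttattaCC
*YES1* 3′UTR, chr18:724013-724041, minus strand: gctataCCataataaaatctaaaattaag
*YES1* 3′UTR, chr18:724100-724129, minus strand: taaatcatttCCtttctttttttCCCCaaa
*YES1* 3′UTR, chr18:724251-724280, minus strand: aCCacttttttttCCCCaagtattaaactc
Each of the 5 shared sites lay in an intron, as did 259 of the 292 sites, and held at least 1 run of C in capitals. The share of all clusters with a run of 2 C was not counted. The *YES1* 3′UTR site at 724013 held a single CC pair and was otherwise rich in A and T. Sequences of *LYN* are not printed here.

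As a group, the 4 genes took 34.8 reads per 100000 in the parental cytoplasm, 24.1 in the *KRT19* KO cytoplasm, 49.0 in the parental nucleus and 34.4 in the *KRT19* KO nucleus. In both fractions the family level was thus below the parental one after *KRT19* KO, with ratios of 0.693 (0.648 to 0.742) in the cytoplasm and 0.702 (0.650 to 0.757) in the nucleus. Relative to 3′UTR reads alone the ratios were 1.32 (1.18 to 1.47) in the cytoplasm, but 0.897, with an interval that includes 1, without 1 *YES1* site of 326 reads in the *KRT19* KO library, and 1.12 (0.793 to 1.57) in the nucleus, whereas intronic reads gave 0.495 (0.444 to 0.551) and 0.771 (0.713 to 0.834). It was also lower in cytoplasm than in nucleus, with 0.711 (0.666 to 0.759) for parental and 0.702 (0.649 to 0.759) for *KRT19* KO cells. On the log2 scale these are -0.49 and -0.51, close to the median of all genes at -0.54 and -0.62. The members did not move together, as the following accounts show. Each library enters 2 of these 4 comparisons, so the ratios share data.

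**Figure D1:**
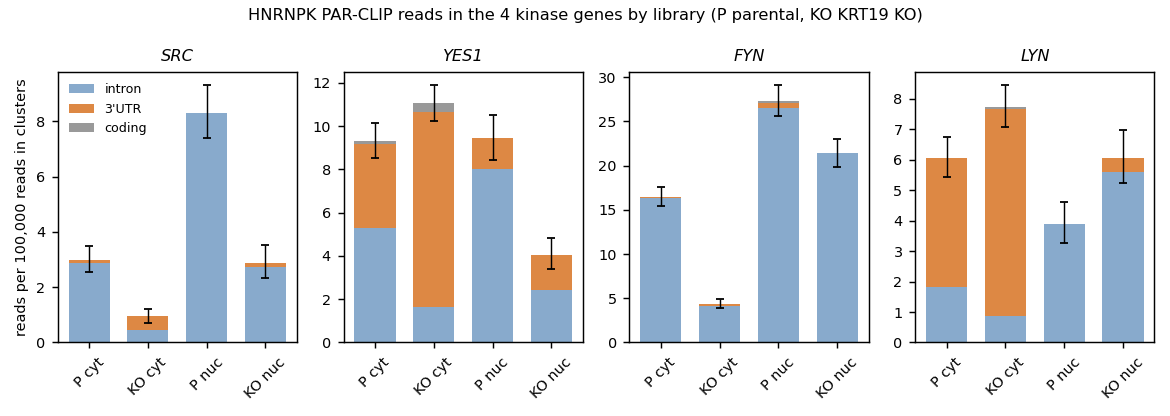
Reads per 100000 reads in clusters (y axis) for each kinase gene in the 4 libraries (x axis; P parental, KO *KRT19* KO, cyt cytoplasm, nuc nucleus). Bars are stacked by annotation (intron, 3′UTR, coding) and start at 0, and error bars are 95% Poisson intervals of the total. *FYN* was mostly intronic throughout, whereas the 3′UTR filled 81.4% of *YES1* and 87.5% of *LYN* reads in the *KRT19* KO cytoplasm.

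*SRC*, the founding member of the family, lies on the plus strand of chr20:35973088-36034453. It had 166 reads in the parental cytoplasm, 59 in the *KRT19* KO cytoplasm, 294 in the parental nucleus and 94 in the *KRT19* KO nucleus, in 12, 6, 16 and 8 clusters. On the library totals this was 2.99, 0.949, 8.31 and 2.89 reads per 100000. The parental nucleus was the highest library and the *KRT19* KO cytoplasm the lowest. *SRC* was at 0.317 (0.232 to 0.430) of the parental level in the *KRT19* KO cytoplasm and at 0.348 (0.273 to 0.440) in the *KRT19* KO nucleus. Between fractions, the cytoplasm stood at 0.360 (0.296 to 0.437) of the nucleus for parental and at 0.328 (0.233 to 0.460) in *KRT19* KO cells. Relative to intronic reads the parental value became 0.545 (0.446 to 0.663), within 2-fold.

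Of the 42 *SRC* clusters, 37 were intronic and 5 lay in the 3′UTR. The intronic sites fell in 6 of 13 introns of the canonical transcript, and intron 2, with 12 sites and 403 reads, held the most. The intron 2 site at 35994779, shown above, had 69 reads in the parental cytoplasm, 14 in the *KRT19* KO cytoplasm, 71 in the parental nucleus and none listed in the *KRT19* KO nucleus. A second intron 2 site at chr20:36004373-36004403 had 17 reads in the parental cytoplasm and 55 in the parental nucleus and was not listed in *KRT19* KO cells. The site at 36002144, by contrast, had 8, 7, 25 and 23 reads in the order above, so that each nucleus was above its cytoplasm and the cell lines were close. Another site of this intron, at chr20:36004814-36004855, had 15 reads in the parental cytoplasm, 11 in the parental nucleus and 20 in the *KRT19* KO nucleus.

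In the *SRC* 3′UTR, 5 sites were each listed in 1 library, none of them in the parental nucleus. The largest, at 36033489 and 1710 nt after the stop codon, had 20 reads from 12 unique sequences with 7 conversion locations, in the *KRT19* KO cytoplasm. The others, at 117, 1025, 1550 and 2011 nt after the stop codon, had 5 to 7 reads each. Through these few reads the 3′UTR share of *SRC* reads was 4.22% (2.06 to 8.45%) in the parental against 54.2% (41.7 to 66.3%) in the *KRT19* KO cytoplasm, by Wilson intervals, while intronic reads went from 159 to 27. Over all genes the 3′UTR share of reads was 31.6% in the parental against 47.4% in the *KRT19* KO cytoplasm, and 5.35% and 5.43% in the nuclei. Binding of HNRNPK to the *SRC* 3′UTR was thus sparse in these libraries, and most of its reads were intronic in 3 of the 4.

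*YES1*, a widely expressed close relative of SRC, lies on the minus strand of chr18:721588-812547. It had 517 reads in the parental cytoplasm, 687 in the *KRT19* KO cytoplasm, 334 in the parental nucleus and 132 in the *KRT19* KO nucleus. On the totals this was 9.31, 11.1, 9.44 and 4.06 reads per 100000. The *KRT19* KO nucleus was lowest and the other libraries lay close to each other. In the *KRT19* KO cytoplasm the level was 1.19 (1.06 to 1.33) times the parental one, but without the largest cluster of each library of the gene it was 0.715 (0.621 to 0.823) times. In the nucleus *KRT19* KO stood at 0.430 (0.349 to 0.527) of parental. The cytoplasm was at 0.986 (0.858 to 1.14) of the nucleus for parental and at 2.72 (2.26 to 3.31) times the nucleus in *KRT19* KO cells. With clusters of at least 2 conversion locations alone, the values of 0.430 and 2.72 became 0.681 (0.540 to 0.855) and 1.33 (1.09 to 1.63), within 2-fold, and with unique reads in place of reads the nuclear one was 0.512 (0.322 to 0.799), from 30 and 67 unique reads. Relative to 3′UTR reads alone both turned, to 1.13 (0.756 to 1.70) in the nuclei and 0.632 (0.477 to 0.855) in *KRT19* KO cytoplasm over nucleus. The nuclear 3′UTR reads of *YES1*, 50 in parental and 53 in *KRT19* KO cells, came from 1 site.

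*YES1* had 16 of the 26 3′UTR sites of the 4 genes, and 15 of the 16 were listed only in cytoplasm. Of these 15, 5 were listed in both cytoplasms. They include the site 1896 nt after the stop codon (chr18:722470-722531), with 66 reads in the parental against 59 in the *KRT19* KO cytoplasm, and the site at 1164 nt (chr18:723212-723263), with 40 and 34. The site at 142 nt, whose C-rich stretch is shown above at 724251, had 24 and 50 reads. In raw reads these shared sites were thus of similar size in the cell lines, apart from the last. Relative to all 3′UTR reads of each library, the *YES1* 3′UTR was lower in the *KRT19* KO cytoplasm once its largest site was left out. The ratio to parental was then 0.646 (0.534 to 0.781).

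The largest *YES1* site was listed in 1 library only. At 724013, 386 nt after the stop codon, it had 326 reads from 181 unique sequences with 8 conversion locations in the *KRT19* KO cytoplasm, 47.5% of all *YES1* reads there. A T-to-C change was found in 61.3% of its reads. The site at chr18:724099-724132, 295 nt after the stop codon, showed the opposite fraction, with 50 reads in the parental nucleus, 53 in the *KRT19* KO nucleus and no cluster in either cytoplasm. It was the only 3′UTR site of the 4 genes listed in both nuclei and in neither cytoplasm. Over all 3′UTR sites of the series, 357 of 45264 had this pattern.

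**Figure D2:**
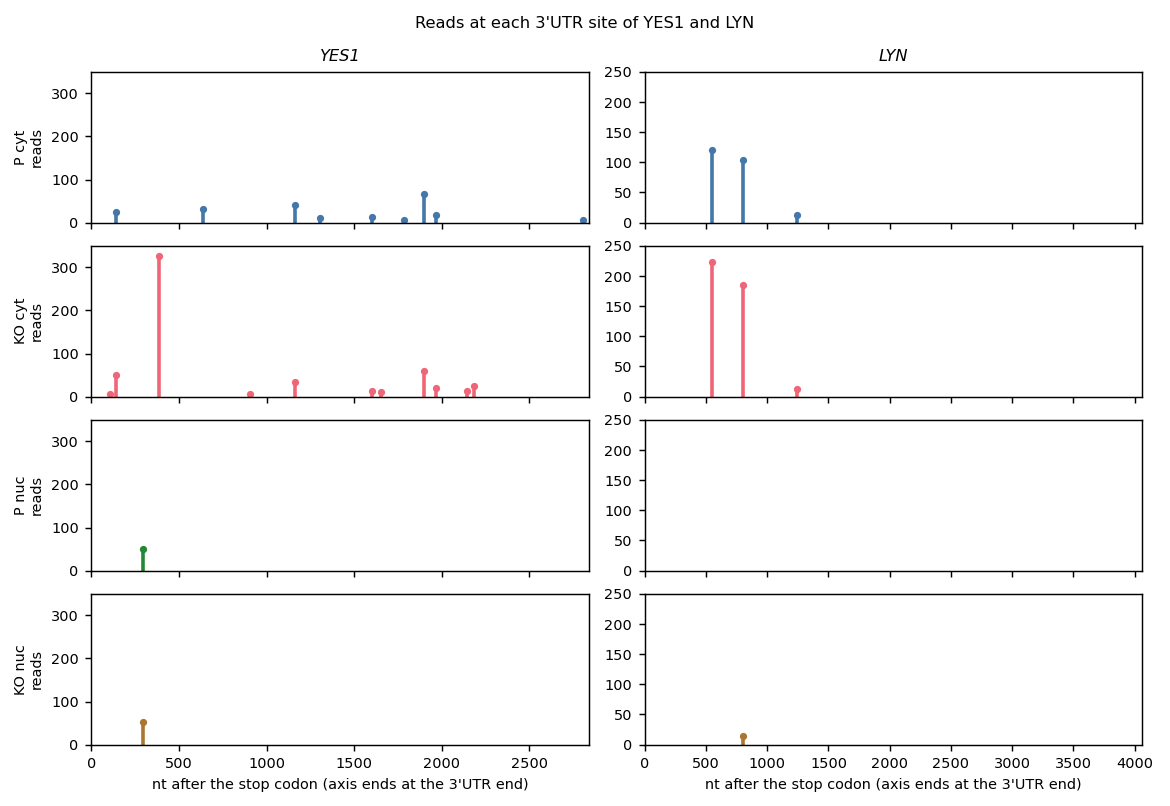
Reads (y axis) at each 3′UTR site of *YES1* (left) and *LYN* (right) against its distance in nt after the stop codon (x axis), with 1 row of panels per library. *YES1* had 9 and 11 sites in the cytoplasms and 1 in each nucleus, and the tallest stem is the site of 326 reads; *LYN* had 3 sites in each cytoplasm, the 2 tallest between 103 and 224 reads.

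In introns *YES1* differed from its 3′UTR in the nucleus, where 1 site held all *YES1* 3′UTR reads. In the cytoplasm this contrast rested on the site of 326 reads. Relative to 3′UTR reads alone, *KRT19* KO over parental cytoplasm was 1.55 (1.32 to 1.82). Without that site it was 0.646 (0.534 to 0.781). In the nuclei the 3′UTR ratio was 1.13 (0.756 to 1.70). Intronic reads numbered 295 in the parental against 102 in the *KRT19* KO cytoplasm, and 284 and 79 in the nuclei. Relative to all intronic reads of each library, *KRT19* KO was at 0.568 (0.449 to 0.714) of parental in the cytoplasm and at 0.339 (0.261 to 0.437) in the nucleus. The intron 11 site at chr18:725935-725970 was listed in all 4 libraries, with 38 and 17 reads in the parental and *KRT19* KO cytoplasm and 62 and 14 in the nuclei. Its neighbour in that intron, at chr18:727958-727987, had 39 and 36 reads in the parental fractions and none listed in *KRT19* KO cells. Intron 1 held 28 of 42 intronic sites (66.7%), close to its 64.2% of the intron length. The only kinase sites within 100 nt upstream of an annotated 3′ splice site, 2 in number, were in *YES1*. Of its 79 clusters, 4 were coding, and 1 cluster had a sequence found at 2 places in the genome.

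*FYN*, known for its roles in neurons and T cells and expressed in many other tissues, lies on the minus strand of chr6:111981535-112194655 and is the longest of the 4 genes. It had 914 reads in the parental cytoplasm, 274 in the *KRT19* KO cytoplasm, 968 in the parental nucleus and 696 in the *KRT19* KO nucleus. This was 16.5, 4.41, 27.4 and 21.4 reads per 100000, so that the *KRT19* KO cytoplasm stood well below the other libraries. The ratio of *KRT19* KO to parental was 0.268 (0.233 to 0.307) in the cytoplasm and 0.782 (0.708 to 0.863) in the nucleus, where it was 0.393 (0.325 to 0.475) with clusters of at least 2 conversion locations alone. Cytoplasm over nucleus was 0.602 (0.549 to 0.659) for parental and 0.206 (0.178 to 0.237) for *KRT19* KO cells. Relative to intronic reads alone, the class of nearly all *FYN* clusters, these became 0.975 (0.889 to 1.07) and 0.501 (0.432 to 0.579), so that the parental fractions were close and the *KRT19* KO ratio no longer reached 2-fold. On the same basis the *KRT19* KO cytoplasm was at 0.464 (0.403 to 0.534) of parental. Intronic reads made up 42.3% of all reads in the parental against 23.0% in the *KRT19* KO cytoplasm, and 67.0% and 59.7% in the nuclei.

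Of 206 *FYN* clusters, 201 were intronic, 3 lay in the 3′UTR and 2 in coding sequence. They formed 151 intronic sites spread over 12 of 13 introns, with 43 in intron 2 and 44 in intron 3. By number of clusters *FYN* was exceeded by 395 of 13388 genes in the parental cytoplasm, by 1282 of 12928 in the *KRT19* KO cytoplasm, by 293 of 13517 in the parental nucleus and by 552 of 13581 in the *KRT19* KO nucleus. The site with the most reads in any library, at chr6:112093973-112094004 in intron 3, had 71 reads in the parental cytoplasm, 28 in the *KRT19* KO cytoplasm, 29 in the parental nucleus and none listed in the *KRT19* KO nucleus. The intron 4 site at chr6:112039898-112039926 instead had 66 reads in the *KRT19* KO nucleus, 38 and 11 in the cytoplasms and none listed in the parental nucleus.

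The 3 *FYN* sites listed in all libraries were of more even size. In the order parental cytoplasm, *KRT19* KO cytoplasm, parental nucleus and *KRT19* KO nucleus, the intron 13 site had 40, 13, 40 and 17 reads. The intron 8 site had 23, 7, 18 and 36 reads. The intron 2 site had 20, 11, 29 and 20 reads. In raw reads the *KRT19* KO cytoplasm was the lowest library at each of the 3. Its total in all clusters was the largest, but its intronic share of reads, 23.0%, was the smallest. These site counts were not set against the intronic totals. In the *FYN* 3′UTR 2 sites were listed, of which 1 had 5 and 11 reads in the cytoplasms and the other 20 reads, all of 1 unique read, in the parental nucleus.

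*LYN*, best known from blood cells, lies on the plus strand of chr8:56792394-56926728. It had 337 reads in the parental cytoplasm, 481 in the *KRT19* KO cytoplasm, 138 in the parental nucleus and 197 in the *KRT19* KO nucleus. The levels were 6.07, 7.74, 3.90 and 6.06 reads per 100000, and on all reads no comparison reached a 2-fold difference. *KRT19* KO was at 1.27 (1.11 to 1.47) times parental in the cytoplasm and at 1.55 (1.24 to 1.94) times in the nucleus. Cytoplasm over nucleus was 1.56 (1.27 to 1.91) for parental and 1.28 (1.08 to 1.52) for *KRT19* KO cells; the latter fell to 0.791 (0.649 to 0.966) without the largest cluster of each library of the gene. With clusters of at least 2 conversion locations alone, 18 *LYN* reads remained in the parental nucleus, and the ratios to it rose to 6.76 (4.06 to 11.9) for the *KRT19* KO nucleus and 6.09 (3.78 to 10.4) for the parental cytoplasm. Relative to intronic reads, parental cytoplasm over nucleus turned to 0.737 (0.565 to 0.960), and *KRT19* KO cytoplasm over nucleus to 0.410 (0.297 to 0.557), past 2-fold, while *KRT19* KO over parental cytoplasm was 0.894 (0.632 to 1.25).

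These levels were made of different parts of the RNA. Of *LYN* reads, 70.0% (64.9 to 74.7%) lay in the 3′UTR in the parental against 87.5% (84.3 to 90.2%) in the *KRT19* KO cytoplasm, where all reads of those libraries gave 31.6% and 47.4%. In the nuclei none were listed in the parental library and the share was 7.61% (4.67 to 12.2%) in the *KRT19* KO one. There were 3 sites, each listed in both cytoplasms. The site 546 nt after the stop codon had 121 reads in the parental against 224 in the *KRT19* KO cytoplasm. The site at 804 nt had 103 and 185 reads, and 15 in the *KRT19* KO nucleus. The site at 1247 nt had 12 in each cytoplasm. Relative to all 3′UTR reads of each library, *LYN* differed little between the cytoplasms, with a ratio of 1.06 (0.904 to 1.25). A further pair of clusters on the *LYN* strand, with 7 and 29 reads in the parental and *KRT19* KO cytoplasm, lay inside the span of the gene without an assigned gene name and is not counted.

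*LYN* introns carried 38 sites in 7 of 12 introns, 18 of them in intron 1 (47.4%, against 48.1% of the intron length). None lay within 500 nt of an annotated 3′ splice site, and 2 of the 38, or 5.26% (1.46 to 17.3%), were listed in both cell lines, beside 18.7% of all intronic sites. The T-to-C share of *LYN* reads was 49.3% (44.0 to 54.6%) in the parental cytoplasm, below the 66.4% of all reads there. In the *KRT19* KO cytoplasm it was 55.3% (50.8 to 59.7%), an interval that includes the 59.6% of all reads. The parental nucleus had 86.2% (79.5 to 91.0%), above the 72.9% of all reads. In the *KRT19* KO nucleus it was 78.7% (72.4 to 83.8%), an interval that includes the 76.7% of all reads. The site at 546 nt, with 36.2%, was the lowest of the 3′UTR sites.

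**Figure D3:**
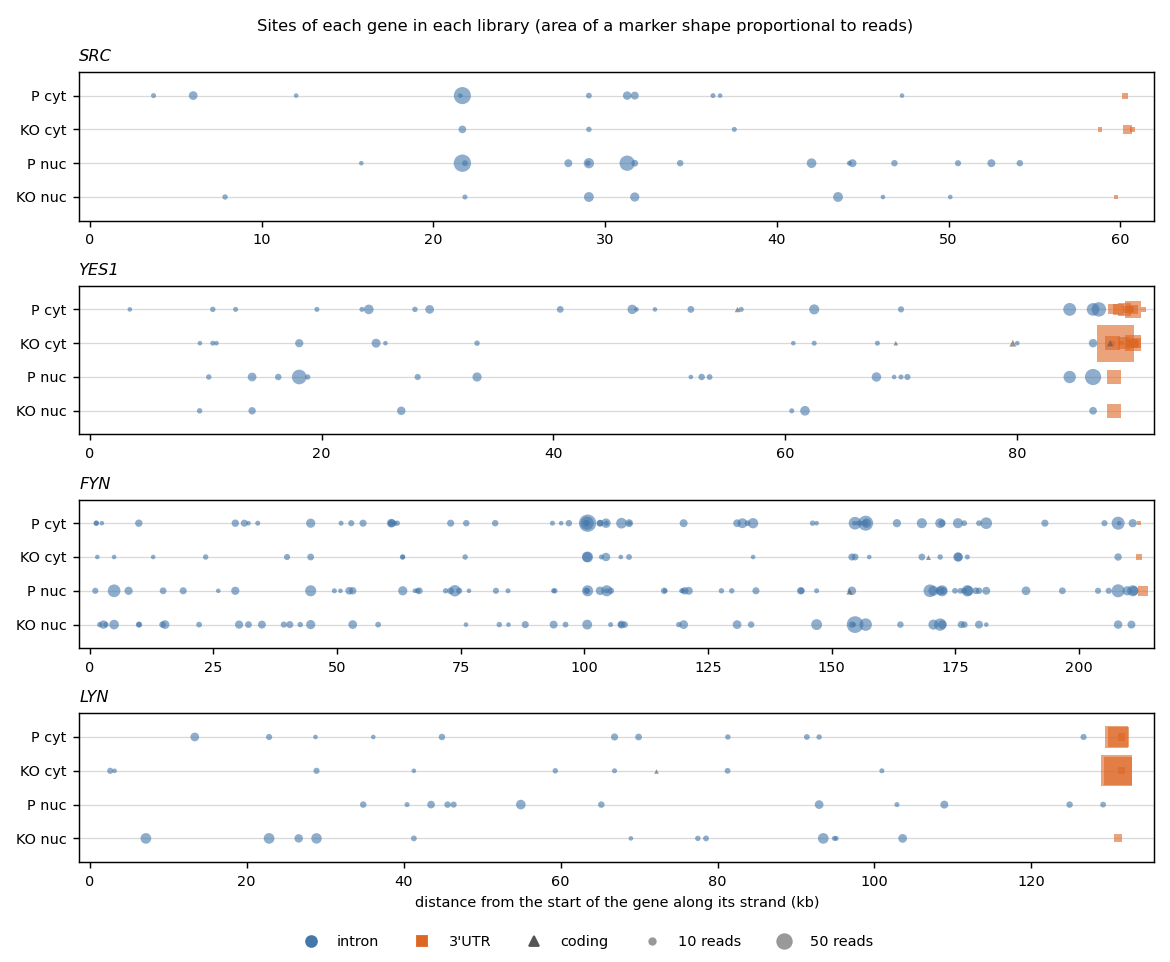
Sites of each gene against the distance from its start in kb along its strand (x axis), with 1 line per library. Marker shape and colour give the annotation, and the area of a marker shape grows with its reads. Intronic sites were spread along the genes, 151 of them in *FYN*, and the large 3′UTR markers of *YES1* and *LYN* stand at the gene ends in the cytoplasm.

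Against the rest of the series, the size of these differences was common. A gene was called when its share of reads differed by at least 2-fold between libraries, among genes whose reads in the pair of libraries came to 50 or more. In the *KRT19* KO over parental cytoplasm, *SRC* and *FYN* were lower and no member higher, where 22.4% of 9378 genes were lower and 20.6% higher. In the nucleus *SRC* and *YES1* were lower and none higher, beside 18.2% lower and 14.4% higher of 9371 genes, the *YES1* call ending with 2 conversion locations or unique reads. In parental cytoplasm over nucleus *SRC* was lower and none higher, beside 34.8% and 18.8% of 9590 genes. In *KRT19* KO cytoplasm over nucleus *SRC* and *FYN* were lower and *YES1* higher, beside 41.2% and 24.4% of 9458 genes, and the *YES1* call ended with 2 conversion locations. The median log2 ratio of all genes in these comparisons was -0.08, -0.10, -0.54 and -0.62. *SRC* was the only member called lower in all 4 comparisons, and 11.8%, 9.97%, 21.8% and 26.4% of genes had a lower ratio. The share of all genes lower in all 4 was not counted, and the ratios share libraries. With unique reads in place of reads the *SRC* ratios were 0.323, 0.352, 0.341 and 0.313. Their intervals reached up to 0.548, 0.626, 0.521 and 0.634, and so included differences under 2-fold.

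**Figure D4:**
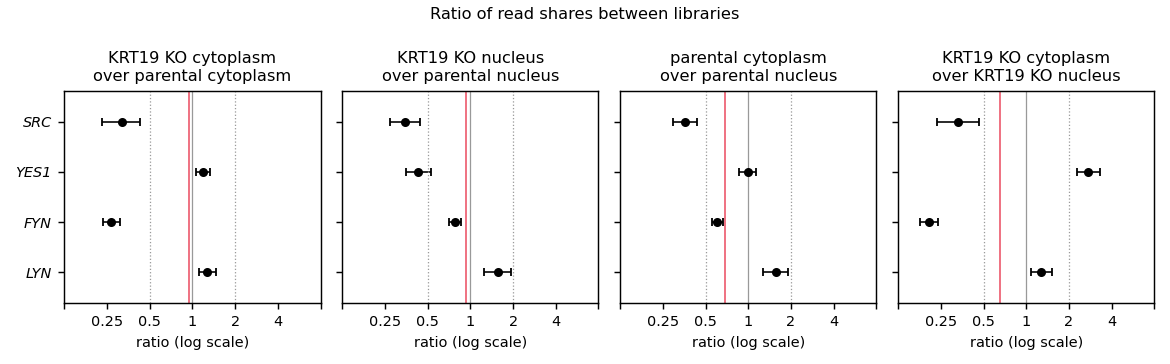
Ratio of read shares (x axis, log scale) for each kinase gene in the 4 comparisons, with 95% counting intervals as bars. Dotted lines mark 2-fold in either direction, the grey line a ratio of 1 and the red line the median of all genes. *SRC* lay left of the lower dotted line in each panel, *YES1* right of the upper one in *KRT19* KO cytoplasm over nucleus with 2.72, and *LYN* within both throughout.

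With intronic reads alone on the intronic totals, *SRC* at 0.279 (0.178 to 0.421) and *FYN* at 0.464 were lower in the *KRT19* KO cytoplasm, where 15.6% of 6399 genes were lower. In the nucleus *SRC* at 0.369 (0.288 to 0.470) and *YES1* at 0.339 were lower, beside 15.2% of 7589 genes. Between the parental fractions no member was called, *SRC* being at 0.545 (0.446 to 0.663), while 26.7% of 7331 genes were lower and 8.85% higher. In *KRT19* KO cells *SRC* at 0.411 (0.257 to 0.639) and *LYN* at 0.410 were lower in cytoplasm, beside 25.0% of 6711 genes, and *FYN* at 0.501 and *YES1* at 1.75 (1.29 to 2.38) lost the calls they had on all reads. Relative to 3′UTR reads, *YES1* in parental cytoplasm over nucleus was lower at 0.463 (0.339 to 0.643), as were 28.1% of 3584 genes, and *LYN*, with 236 reads against none listed, counted as higher, as did 39.7%. The nuclear *YES1* reads in this ratio were those of 1 site.

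Per length, the genes differed in introns and in the 3′UTR in different orders. In the parental nucleus *SRC* had 1.50 intronic reads per kb of intron and per 1000000 reads in clusters (RPKM, 1.34 to 1.69) and *FYN* 1.27 (1.19 to 1.35), with overlapping intervals. *YES1* followed with 0.933 (0.828 to 1.05) and *LYN* with 0.304 (0.255 to 0.359). In the *KRT19* KO nucleus *FYN* was first with 1.02 (0.947 to 1.10). *SRC* with 0.495 (0.398 to 0.609) and *LYN* with 0.436 (0.375 to 0.504) overlapped there, and *YES1* was last with 0.282 (0.223 to 0.352). In the parental cytoplasm *FYN* had 0.782, *YES1* 0.618, *SRC* 0.518 and *LYN* 0.142, and the intervals of *YES1* and *SRC* overlapped. In the *KRT19* KO cytoplasm all lay between 0.0689 for *LYN* and 0.197 for *FYN*. *LYN* thus had the sparsest introns in 3 of the 4 libraries, the *KRT19* KO nucleus excepted, although its interval overlapped that of *SRC* in the *KRT19* KO cytoplasm.

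In the 3′UTR *YES1* had the highest level per length in each library, followed by *LYN* in both cytoplasms, but in the *KRT19* KO cytoplasm this rested on the site of 326 reads. In the parental cytoplasm *YES1* had 13.6 RPKM (11.9 to 15.6) and *LYN* 10.5 (9.17 to 11.9), whose intervals just overlapped, while *FYN* had 0.639 and *SRC* 0.472. In the *KRT19* KO cytoplasm *YES1* had 31.7 (29.1 to 34.4), *LYN* 16.7 (15.1 to 18.3), *SRC* 1.93 (1.32 to 2.72) and *FYN* 1.26 (0.626 to 2.25). Without that site *YES1* had 13.2 (11.6 to 15.0) there, below *LYN* and close to its parental level on the reads in all clusters. Relative to 3′UTR reads alone it was then at 0.646 (0.534 to 0.781) of parental. *YES1* also led in the nuclei with 4.98 and 5.74, both from the same 1 site. There *FYN*, at 4.01 (2.45 to 6.19) in the parental nucleus with an interval that overlapped, rested on 1 unique read.

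**Figure D5:**
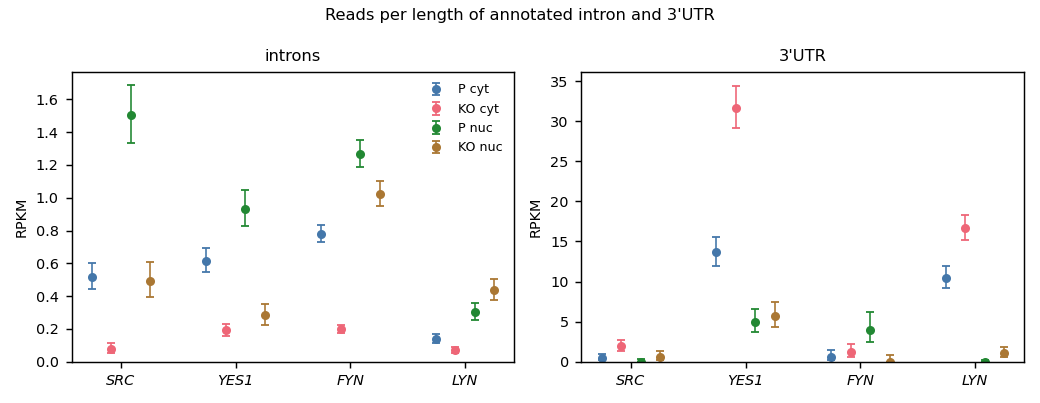
RPKM over annotated introns (left) or the 3′UTR (right) (y axes, from 0) for each gene, with 95% Poisson intervals; colours give the library. Intronic levels were highest in the parental nucleus except for *LYN*, and the highest 3′UTR level was the 31.7 of *YES1* in the *KRT19* KO cytoplasm, which was 13.2 without 1 site.

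Most sites were listed once. Of the 292 sites, 65 or 22.3% (17.9 to 27.4%) were listed in 2 or more libraries, which is near the 22.6% of all 592021 sites of the series and the 23.2% of all sites taken at the annotation and read mix of the 4 genes. By gene the share was 15.2% (6.65 to 30.9%) of 33 *SRC*, 24.2% (15.2 to 36.2%) of 62 *YES1*, 23.9% (17.8 to 31.2%) of 155 *FYN* and 19.0% (9.98 to 33.3%) of 42 *LYN* sites, with overlapping intervals. The share rose with the reads of a site summed over the 4 libraries, which is partly built in, as each further listing adds reads. None of 131 sites with 5 to 9 reads was listed in 2 libraries, since a second listing needs 5 more reads, against 60.0% of 55 sites with 20 to 49 reads and 21 of the 22 larger ones. Over the series 60.4% of sites with 20 to 49 reads, 87.2% with 50 to 99 and 92.3% with 100 or more were listed in 2 or more libraries. The exception among the larger kinase sites was the *YES1* site of 326 reads, and 1799 of 23471 sites with 100 reads or more were likewise listed once.

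Between the cytoplasms 26 sites were shared, 22.2% of 117 parental sites and 36.6% of 71 *KRT19* KO sites. Over the series these shares were 25.5% and 28.9%. Between the nuclei 18 were shared, 15.8% of 114 and 23.7% of 76, against 18.9% and 19.1% over the series. In 3′UTRs 22 of 26 sites, 84.6% (66.5 to 93.8%), were listed only in cytoplasm, 3 only in nucleus and 1 in both, beside 70.0%, 12.6% and 17.4% of 45264 sites. In introns 92 of 259 sites were listed only in cytoplasm, 126 only in nucleus and 41 in both, or 35.5%, 48.6% and 15.8% beside 33.9%, 47.5% and 18.6% of 349605 sites. By cell line, 149 intronic sites or 57.5% (51.4 to 63.4%) were listed only in parental cells and 70 or 27.0% (22.0 to 32.7%) only in *KRT19* KO cells, beside 46.4% and 34.9% of all intronic sites. *SRC* with 19 against 5, *YES1* with 25 against 11 and *FYN* with 85 against 38 shared this direction, and *LYN*, with 20 against 16, was the most even.

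Runs of C were searched for on the sense strand of each cluster, first the motif CCC and then longer motifs that all contain it. CCC was found in 167 of the 378 clusters (44.2%), close to the 43.2% of all clusters of the same lengths. The genes differed among themselves. *SRC* clusters were 33.9% C and 71.4% of the 42 held CCC, against 43.2% of all clusters of the same lengths, and 54.8% held the longer UCCC, against 31.0%. They were also richer in G, with 13.7% against 7.55% of all clusters, and poorer in A, with 22.8% against 30.8%. The motif shares were matched for length and not for base content. *YES1* clusters were 22.2% C and 37.7% U, and 34.2% of the 79 held CCC, against 44.2%. *FYN*, with 41.7% against 42.7%, and *LYN*, with 47.1% against 43.3%, were near the series. The run CCCC was in 62 kinase clusters or 16.4%, against 16.9% of the series. UUCCC, which adds a U before UCCC, was in 63 or 16.7%, against 14.0%. Clusters of a gene overlap where libraries share a site, so they are not independent sequences, and a match is not evidence of a contact at these letters.

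The genes whose reads were spread most like each member were found by the overlap of 12 shares, of 4 libraries by intron, 3′UTR and other sequence, over 7891 genes with at least 200 reads, where 1 would be an identical spread. For *SRC* these were *PRKG1* (0.954), *KAZN* (0.949) and *RNFT2* (0.945). For *YES1* they were *RAB11FIP5* (0.898), *PPME1* (0.890) and *EFHD2* (0.888), for *FYN* *HIBCH* (0.979), *AP3S1* (0.978) and *STRN3* (0.974), and for *LYN* *ALDH18A1* (0.947), *EIF3J* (0.937) and *SDC2* (0.936). Among the members themselves *SRC* and *FYN* overlapped at 0.784 and *YES1* and *LYN* at 0.752, and the other pairs at 0.503 to 0.547, where the median overlap with all genes was 0.571 for *SRC*, 0.531 for *YES1*, 0.634 for *FYN* and 0.533 for *LYN*.

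Other genes of the pathway were counted from a list of 24. Of the SRC family kinases on it, *FGR* and *BLK* had no cluster in the files used here, *LCK* had 1 of 5 reads in the parental nucleus, and *FRK*, a related epithelial kinase, had 120 reads in 11 clusters. Of 6 regulators 5 had a cluster, *MATK* being the exception, and all 14 substrates and adaptors had one. In the cytoplasm comparison of *KRT19* KO with parental, 19 genes had 50 reads or more, of which 2 were higher and 4 lower, beside 20.6% and 22.4% of all genes, and the median log2 ratio was -0.23 beside -0.08. In the nucleus none of 20 was higher and 3 were lower, beside 14.4% and 18.2%, with a median of -0.28 beside -0.10. In parental cytoplasm over nucleus 2 of 19 were higher and 6 lower, beside 18.8% and 34.8%, with a median of -0.79 beside -0.54. In *KRT19* KO cells 3 of 18 were higher and 8 lower, beside 24.4% and 41.2%, with a median of -0.19 beside -0.62. The shares of lower genes were thus close to those of all genes. Those of higher genes were below the shares of all genes in each comparison, on counts of at most 3 genes.

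The most reads were in *PTK2*, the focal adhesion kinase that SRC binds and phosphorylates, with 83.1 reads per 100000 in the parental cytoplasm, 50.2 in the *KRT19* KO cytoplasm, 151 in the parental nucleus and 113 in the *KRT19* KO nucleus. *PTPN1*, a phosphatase that can activate SRC, had 86.7, 110, 21.0 and 24.7 in the same order and was thus higher in cytoplasm than in nucleus in both cell lines. *PTPN11*, the phosphatase SHP2, had 28.8, 21.2, 17.0 and 18.2, and *PTPRA*, a receptor phosphatase that activates SRC, had 13.1, 8.12, 39.5 and 24.5. *PTPN1* and *PTPRA*, both activators of SRC, were opposite in fraction, with cytoplasm over nucleus at 4.13 (3.82 to 4.47) and 0.332 (0.303 to 0.363) in parental cells.

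The genes past 2-fold in the cytoplasm comparison were *FRK* and 5 of the 13 adaptors and substrates with enough reads. These ratios use all reads and were not also taken within introns or 3′UTRs. Intronic reads made up 42.3% of all reads in the parental against 23.0% in the *KRT19* KO cytoplasm. For 3′UTR reads these shares were 31.6% and 47.4%, and the part of this difference in the ratios was not tested. *SHC1*, an adaptor to RAS signalling, went from 6.05 to 23.1 reads per 100000 in *KRT19* KO, a ratio of 3.82 (3.39 to 4.31), and *PXN*, the focal adhesion protein paxillin, from 8.05 to 18.9, a ratio of 2.34 (2.10 to 2.62). *CTTN*, the actin regulator cortactin, went from 3.85 to 0.611, a ratio of 0.159 (0.109 to 0.225). *ABL1*, a tyrosine kinase that SRC can phosphorylate, was at 0.346 (0.282 to 0.422), *CBL*, a ubiquitin ligase for activated kinases, at 0.464 (0.438 to 0.491), and *FRK* at 0.469 (0.263 to 0.814). *CBL* had 64.1 and 29.7 reads per 100000 in the cytoplasms and 20.2 and 12.2 in the nuclei, with 22, 20, 6 and 9 3′UTR clusters.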

How the data were processed

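HNRNPK PAR-CLIP clusters of 4 libraries were used, and the 17 RNA-seq samples of the series were not analysed here. According to the methods, the authors used PARpipe, with alignment to hg19 and cluster calling by PARalyzer, and versions are not given in the sources used here. The submitters' processing notes name hg38, TopHat, Cuffdiff, Cufflinks 2.2.1 and bcl2fastq 2.20.0 for every sample, PAR-CLIP included. For the clusters hg38 conflicts with the methods, and hg19 was used because the kinase cluster sequences equal GRCh37 at the listed positions. The deposited values used are raw counts of reads, unique reads, T-to-C reads and conversion locations per cluster, with no normalization by the authors. Deposited columns with a fraction, a score or a log10 value were left aside. RNase T1, which cuts after G, was used in the protocol, and 53.2% of the kinase clusters ended in G, against 47.3% of all clusters.

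Clusters were assigned by gene name, and reads were divided by the reads in all clusters of the library, or of its annotation class where stated. Clusters were merged when they overlapped by at least 1 nt on 1 strand. Intervals were exact Poisson for levels, exact conditional binomial for ratios and Wilson for shares. Gene structures came from the canonical GENCODE transcripts lifted to GRCh37. Genes listed in 1 library of a comparison only were set to 3 reads in the other for counting 2-fold calls, and no ratio is given for them. Named genes were the 4 members, the 3 genes most like each, and of the pathway list the 5 with the most reads and all past 2-fold in the cytoplasm comparison. *KRT19*, *MALAT1* and *NEAT1* were named as checks of the labels, and *LCK*, *FGR*, *BLK* and *MATK*, which fall outside this rule, after their values were seen. Single clusters and sites were named as listed in all libraries, as the largest in a library, or after their values were seen. The members and lists were chosen with earlier results of these data known, and 1 gene first put on the pathway list is not reported here. Python 3.11.15, numpy 2.4.6, pandas 2.3.3 and scipy 1.17.1 were used, and the ratio and merging steps were tested on simulated data.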

Additional observations from a re-analysis of the deposited data

Results flagged for a closer look

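The ratios of *YES1* lay on opposite sides of 1 in the fractions and in the cell lines. *KRT19* KO over parental was 1.19 in the cytoplasm and 0.430 in the nucleus, and cytoplasm over nucleus was 0.986 (0.858 to 1.14), an interval that includes 1, for the parental line and 2.72 for *KRT19* KO. Without the largest cluster of each library of the gene *KRT19* KO over parental was 0.715 and 0.316, below 1 in both fractions, and cytoplasm over nucleus was 1.06 (0.907 to 1.23), again with an interval that includes 1, and 2.39. In 3′UTR reads alone the 0.430 turned to 1.13 (0.756 to 1.70) and the 2.72 to 0.632 (0.477 to 0.855). On that basis the 0.986 became 0.463 (0.339 to 0.643) and the 1.19 became 1.55 (1.32 to 1.82). The nuclear reads in these 3′UTR ratios were those of 1 site. Without the site of 326 reads, left out after seeing the data, the 1.55 turned to 0.646 (0.534 to 0.781). With 2 conversion locations the 0.430 and the 2.72 were 0.681 and 1.33. The difference between these ratios was not tested, as there is 1 library per condition. The 326 reads at 724013 in the *KRT19* KO cytoplasm enter 2 of the 4 ratios.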

How the results depend on the processing

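No paired analysis was possible because each condition is 1 library and no test was made. Raising the limit to 10 reads left 63, 30, 69 and 46 clusters in the parental cytoplasm, *KRT19* KO cytoplasm, parental nucleus and *KRT19* KO nucleus, and requiring 2 conversion locations left 52, 38, 33 and 15. The family ratio of *KRT19* KO to parental in the cytoplasm, 0.693, became 0.767 with 2 conversion locations, 0.502 without the largest cluster of each member and library, 0.495 in introns and turned to 1.32 in 3′UTRs, or 0.897 there without the *YES1* site of 326 reads, left out after seeing the data; in the nucleus, 0.702 became 0.623 with 2 conversion locations, 0.771 in introns and 1.12 in 3′UTRs. Cytoplasm over nucleus in parental cells, 0.711, became 0.665 without the largest clusters and 0.891 in introns. In *KRT19* KO cells 0.702 became 0.644 with 10 reads, 0.822 with 2 conversion locations, 0.764 with unique reads, 0.497 without the largest clusters, 0.840 in 3′UTRs, 0.573 in 3′UTRs without that site and 0.572 in introns.

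Of the members' calls, 4 turned to the other side of 1 in 3′UTR reads alone: *SRC* in the *KRT19* KO over parental cytoplasm (2.72, from 32 and 7 reads), *FYN* in that comparison (1.31, from 11 and 5 reads), *YES1* in the nuclei (1.13) and *YES1* in *KRT19* KO cytoplasm over nucleus (0.632, or 0.264 without that site). The nuclear *YES1* 3′UTR reads, 50 in parental and 53 in *KRT19* KO cells, lay at 1 site. On intronic reads *SRC* lost its call in the parental fractions (0.545), *FYN* (0.501) and *YES1* (1.75) lost theirs in *KRT19* KO cytoplasm over nucleus, and *LYN* gained one there (0.410). With 2 conversion locations *YES1* lost its calls in the nuclei (0.681) and in *KRT19* KO cytoplasm over nucleus (1.33), the former also with unique reads (0.512), *FYN* passed 2-fold in the nuclei (0.393) and *LYN* in the nuclei (6.76) and in the parental fractions (6.09). Apart from the 4 that turned, 64 values of single members, cluster counts included, moved past their counting interval or by over 1.5 times, and 70 did not. Leaving out the largest cluster of each library, which lies in none of these genes and was chosen after seeing the data, moved none of 20 ratios past its interval. Sharing of sites was 21.8% at an overlap of 50% and 26.6% with 10 reads. Depth limits *SRC* most, with 59 reads in the *KRT19* KO cytoplasm, and the spread between cultures is not known.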

Other observations

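On the opposite strand inside the spans of *YES1*, *FYN* and *LYN*, 5 clusters with 51 reads in all were listed, none with a gene name. *SRC* had none.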
